A study of Mus musculus with 16 samples.

Results

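To ask whether loss of PKM2 altered the transcriptional answer of the heart to an infarct, the difference between 2 differences was measured for each gene. The infarct response of a genotype is the log2 level 3 days after myocardial infarction (MI) minus the log2 level 3 days after sham surgery, and the genotype by infarct interaction is the response in PKM2-/- hearts minus the response in PKM2fl/fl hearts. A positive interaction means a response that is higher in PKM2-/- hearts, either because a rise was larger or because a fall was smaller. Of the 55492 genes in the deposited table, the fit took the 20604 whose normalized count averaged 10 or more across the sham and MI libraries. These were 12 of the 16 libraries in the series. The baseline libraries entered no term of the interaction.

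Each of the 4 groups held 3 libraries of left ventricle RNA, all from male C57BL/6 mice of 8 to 12 weeks. PKM2fl/fl mice carried floxed *Pkm* alleles and no Cre. PKM2-/- mice came from a germline deletion of the exon particular to PKM2 by a CMV-driven Cre that was then bred out, so that PKM2 was missing from every cell type of the body and from development onward. MI was produced by permanent ligation of the left anterior descending artery, and sham mice had the same surgery without ligation. Each library is labelled as its own mouse, and libraries are named here by group and replicate number. The tissue was pulverized left ventricle, so infarcted and remote muscle, infiltrating cells and epicardium were read together. In such bulk RNA, fewer cells of a type and less RNA per cell cannot be told apart. RNA was depleted of ribosomal RNA (rRNA) before sequencing. The 12 libraries had 20623769 to 71855101 reads on genes, and rRNA-related loci, nuclear and mitochondrial, still held 15.9% to 49.9% of them. Sarcomere genes of the cardiomyocyte summed to between 1378898 and 1733355 normalized counts in the 6 sham libraries and to between 367986 and 750867 in the 6 MI libraries. Reads of *Pkm* did not check the genotype, because the deposited table counts the gene as a whole and the other exons remain in the knockout.

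Pyruvate kinase catalyses the last step of glycolysis, and its PKM2 isoform is expressed in proliferating and developing cells while PKM1 predominates in adult muscle. In the days after a coronary occlusion, cardiomyocytes of the infarct die, neutrophils and monocytes enter, fibroblasts begin to proliferate and lay down collagen, and the surviving muscle lowers its genes of contraction, conduction and oxidative metabolism. An interaction compares how strongly each of these programmes was engaged, and it is by construction noisier than either response, since the spread of all 4 groups enters it.

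The smallest p-values of the interaction belonged to 2 Y RNAs, and small structural RNAs recurred among the genes that followed, so their sequences are shown first. Y RNAs are short noncoding transcripts of RNA polymerase III that are bound by the Ro60 protein and take part in RNA quality control and DNA replication. *Rny1* and *Rny3* are neighbours on chromosome 6 (GRCm38, 47788070 to 47788180 and 47781624 to 47781724). Their transcripts in GENCODE M39, on GRCm39, are printed with the stretches of at least 8 bases that both share in capitals, 28 bases in each. The shared stretches include parts of both ends, which are known to pair in the stem of a Y RNA. *Rny1* lies at chr6:47765003-47765114 on the reverse strand and *Rny3* at chr6:47758558-47758659 on the forward strand.

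Rny1: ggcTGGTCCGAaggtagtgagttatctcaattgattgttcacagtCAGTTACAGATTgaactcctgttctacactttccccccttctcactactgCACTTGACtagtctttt
Rny3: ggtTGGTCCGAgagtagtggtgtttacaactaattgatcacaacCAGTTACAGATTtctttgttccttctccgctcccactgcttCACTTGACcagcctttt

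A pair of small nucleolar RNAs (snoRNAs, guides of rRNA modification), *Gm25776* and *Gm25848*, were among the genes with the smallest p on the other side and are close copies on different chromosomes. *Gm25776* lies at chr12:91540204-91540346 and *Gm25848* at chr16:32062530-32062673 in GRCm39, both on the reverse strand. Capitals again mark shared stretches of at least 8 bases, which cover 97 bases in each. Reads that fall in these stretches may not be assignable to a single copy, so the values of either gene are uncertain.

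Gm25776: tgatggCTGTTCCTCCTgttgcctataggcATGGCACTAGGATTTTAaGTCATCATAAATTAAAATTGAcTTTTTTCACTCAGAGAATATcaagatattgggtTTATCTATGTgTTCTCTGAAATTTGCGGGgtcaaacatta
Gm25848: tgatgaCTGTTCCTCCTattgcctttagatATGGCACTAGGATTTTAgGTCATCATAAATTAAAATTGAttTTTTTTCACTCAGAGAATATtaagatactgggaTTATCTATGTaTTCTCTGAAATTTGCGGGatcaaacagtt

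No gene passed the threshold for an interaction, which was a Benjamini-Hochberg adjusted p under 0.05 from limma-trend and a log2 interaction of at least 1 in either direction. The share called was therefore 0.0% in both directions. An unadjusted p under 0.05 was reached by 770 genes (3.74%) with a higher and 698 genes (3.39%) with a lower response in PKM2-/- hearts, 1468 in all. The smallest adjusted p was 0.189. The interaction was above 0 in 49.2% of genes and below 0 in 50.8%, and its median was −0.01 with a median standard error of 0.28 on the log2 scale.

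The count of called genes depended on the model and on 1 library. DESeq2 on the recovered reads called 28 genes, 13 higher (0.0631%) and 15 lower (0.0728%), edgeR's quasi-likelihood test called 0 after its filter on low counts and 125 without a filter, and limma-voom called 0. Of the genes called by DESeq2, 24 were among those of edgeR without a filter. Without PKM2fl/fl MI 3 the limma-trend count was 137, of which 22 were higher (0.107%) and 115 lower (0.558%). Without PKM2fl/fl sham 3 it was 2 (*Gm8420* and *Kcnj14*, named after their values were seen), without PKM2-/- MI 1 it was 1 (*Camk2b*), and it was 0 without any of the other 9 libraries. Values below are therefore given as measurements, and "called by DESeq2" refers to an adjusted p under 0.05 with at least a 2-fold interaction in that test.

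Either genotype responded to the infarct on a broad scale. In PKM2fl/fl hearts 2641 genes (12.8%) rose and 2226 (10.8%) fell, and in PKM2-/- hearts 3065 (14.9%) rose and 2868 (13.9%) fell. With libraries scaled to their total reads, 2107 rose and 2770 fell in PKM2fl/fl and 5515 rose and 1460 fell in PKM2-/- hearts, and with the total taken over reads outside rRNA-related loci the counts were 3427 and 1498 in PKM2fl/fl and 4715 and 1815 in PKM2-/- hearts. With the deposited scaling by DESeq2 size factors, 2264 genes rose in both genotypes and 1889 fell in both. Under that scaling Pearson's r between the responses was 0.887 over the 20604 genes, which are not independent and share no sample between the responses. A total of 377 genes rose and 337 fell past the threshold in PKM2fl/fl hearts alone under that scaling, against 801 and 979 in PKM2-/- hearts alone. Past one threshold and not the other does not show a difference, and none of these genes had a called interaction. *Rny3* was the 1 gene called in opposite directions.

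**Figure D1:**
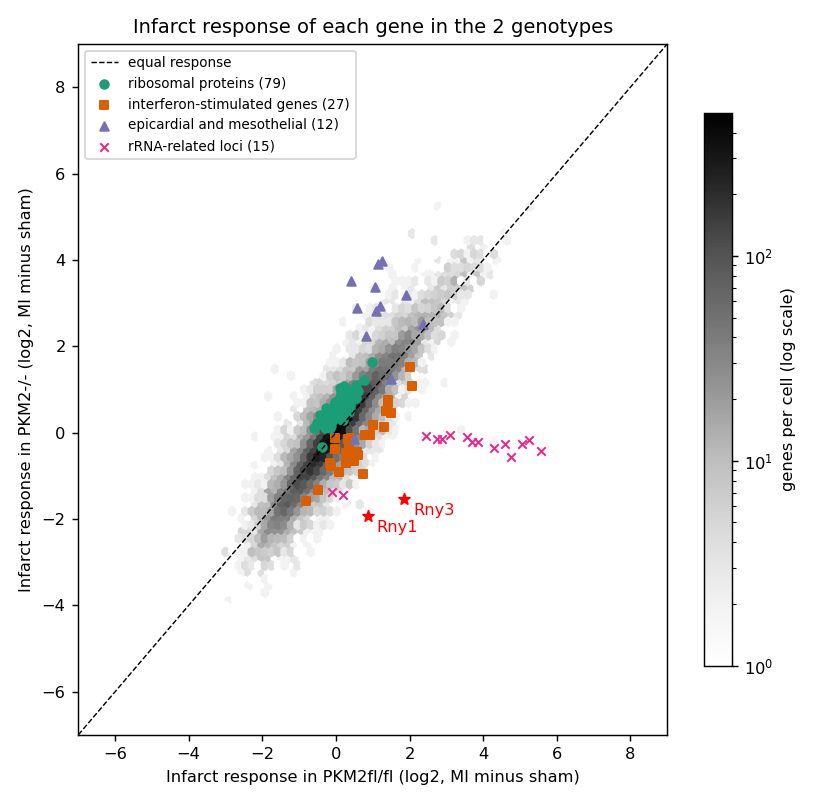
Infarct response of the 20604 genes in PKM2fl/fl hearts (x axis) and in PKM2-/- hearts (y axis), as log2 MI minus sham, with genes per cell in grey on a log scale, the line of equal response dashed, and 4 gene lists and 2 Y RNAs marked. All 79 ribosomal proteins lie above the line and all 27 interferon-stimulated genes below it, while *Rny1* and *Rny3* lie at a positive x and a negative y.

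The response was on average somewhat larger in PKM2-/- hearts. Among the 2944 genes that rose on the mean of both genotypes, the median response was 1.605 in PKM2fl/fl and 1.80 in PKM2-/- hearts, a ratio of 1.12 (SD over MI libraries 0.153), and 1930 (65.6%) had the larger rise in PKM2-/-. Among the 2637 that fell, the medians were −1.33 and −1.63, a ratio of 1.22 (SD 0.423), and 2068 (78.4%) had the larger fall in PKM2-/-. The ratios were thus less than 1 SD from equal size. They also turned on the scaling. When libraries were scaled to their total reads instead of by DESeq2 size factors, all genes together had a median interaction of 0.68, and the ratios became 1.602 for rising and 0.75 for falling genes, so that the falling genes then fell less in PKM2-/- hearts.

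The 6 MI libraries differed in the size of their response. Rising genes had a median change from their own shams of 1.63, 1.42 and 1.85 in the PKM2fl/fl MI libraries 1 to 3, and of 1.79, 1.83 and 1.85 in the PKM2-/- MI libraries. Falling genes had medians of −1.14, −1.004 and −1.85 in PKM2fl/fl and of −1.48, −1.66 and −1.70 in PKM2-/-. PKM2fl/fl MI 3 had the strongest fall of all 6 hearts, and the other 2 PKM2fl/fl hearts had the weakest. Without PKM2fl/fl MI 3 the ratio of falling genes was 1.51, and without PKM2fl/fl MI 2 it was 1.09. The PKM2-/- hearts lay close together on both measures.

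**Figure D2:**
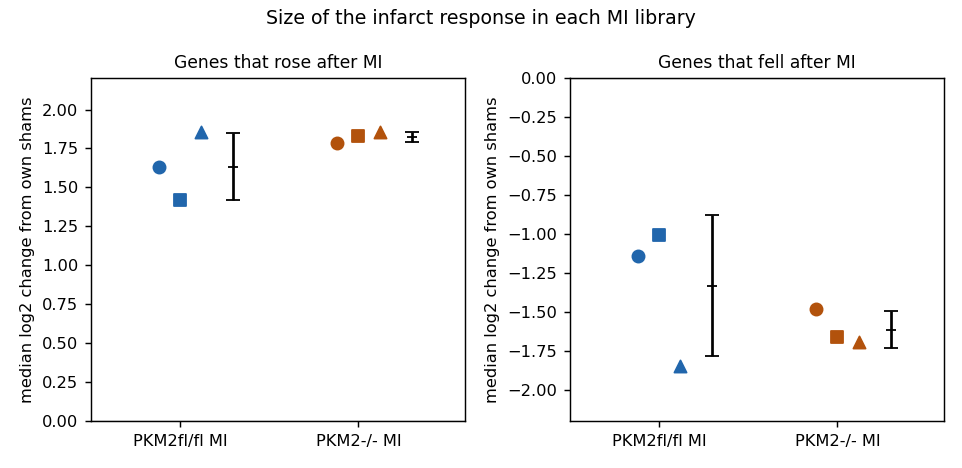
Median log2 change from the shams of the same genotype over 2944 rising genes (left) and 2637 falling genes (right), 1 point per MI library with the group mean and SD. The falling genes separate PKM2fl/fl MI 3 at −1.85 from the other 2 PKM2fl/fl hearts at −1.14 and −1.004, and the 3 PKM2-/- hearts sit between these values.

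The Y RNAs moved in opposite directions in the 2 genotypes, past the threshold in both genotypes only for *Rny3*. *Rny3* had 991, 762 and 1538 normalized counts in the PKM2fl/fl sham libraries and 4297, 2503 and 5087 after MI, but 1228, 1046 and 2142 in the PKM2-/- sham libraries and 303, 699 and 537 after MI. Every PKM2fl/fl MI heart was above its shams and every PKM2-/- MI heart below its shams, an order that 19 genes (0.0922%) showed. Its response was 1.85 (adjusted p = 0.00103) in PKM2fl/fl and −1.53 (adjusted p = 0.00299) in PKM2-/- hearts, both from limma-trend. The interaction was −3.38 (standard error 0.51, limma-trend unadjusted p = 1.82e-05, adjusted p = 0.189), and −3.37 with DESeq2 (adjusted p = 2.99e-07).

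*Rny1* followed the same order. It had 1415, 735 and 1180 normalized counts in PKM2fl/fl sham and 1877, 1800 and 2174 in PKM2fl/fl MI libraries, and 1985, 1247 and 1074 in PKM2-/- sham and 239, 535 and 379 in PKM2-/- MI libraries. The 3 infarcted PKM2-/- hearts were the 3 lowest of all 12. The interaction was −2.78 (standard error 0.42, limma-trend unadjusted p = 1.88e-05, adjusted p = 0.189), and −2.71 with DESeq2 (adjusted p = 2.05e-06). Between the sham groups *Rny1* differed by 0.37 (limma-trend adjusted p = 0.805) and between the MI groups by −2.41 (limma-trend adjusted p = 0.0114).

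*Rnu11*, the U11 small nuclear RNA that recognises the 5′ splice site of minor introns, had 78.1, 63.6 and 78.0 normalized counts in PKM2fl/fl sham and 125, 95.4 and 166 in PKM2fl/fl MI libraries. In PKM2-/- hearts it had 53.0, 69.2 and 55.0 after sham surgery and 27.6, 33.7 and 30.3 after MI. Here too the MI hearts left their shams in opposite directions. The interaction was −1.70 (standard error 0.33, limma-trend adjusted p = 0.304; DESeq2 adjusted p = 0.00570). *Gm28872* overlaps *Rnu11* on chromosome 4 and had the same counts in every PKM2-/- library, so both symbols largely report 1 set of reads. The paper lists *Rny1*, *Rnu11* and *Gm28872* as higher in unoperated PKM2-/- than in unoperated PKM2fl/fl hearts, opposite to the order after MI. Those baseline libraries entered no term here.

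Structural RNAs as a whole list, with *Rny3*, *Rny1* and *Rnu11* included, gave no common direction. Of 24 listed Y RNAs, spliceosomal, signal recognition particle, vault and Cajal body RNAs, 20 were tested, 11 had an interaction above 0, and their median interaction was 0.20. An unadjusted p under 0.05 was reached by 3 with a higher and 3 with a lower interaction. The 3 lower ones were *Rny3*, *Rny1* and *Rnu11* themselves, and all 11 above 0 were among the remaining members. *Rn7s1*, a 7SL RNA of the signal recognition particle, had an interaction of 4.21 (standard error 1.24, limma-trend adjusted p = 0.591), but its values ran from 6240 to 43617 within PKM2fl/fl sham hearts and from 3232 to 35490 within PKM2-/- MI hearts. *Rn7s2*, a near copy of *Rn7s1* between which reads can be split, had 2.57 (standard error 0.89, limma-trend adjusted p = 0.663). *Scarna6*, a Cajal body RNA, had 0.97 (standard error 0.42, limma-trend adjusted p = 0.683).

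Gains in PKM2-/- hearts against losses in PKM2fl/fl hearts were seen in the snoRNA pair shown above. *Gm25776* had 79.9, 64.7 and 83.8 normalized counts in PKM2fl/fl sham, 18.6, 25.7 and 18.3 in PKM2fl/fl MI, 19.3, 23.5 and 21.6 in PKM2-/- sham and 38.1, 53.4 and 25.97 in PKM2-/- MI libraries. The PKM2fl/fl shams were the 3 highest of all hearts, and the 2 sham groups did not overlap. Its PKM2fl/fl MI hearts were below and its PKM2-/- MI hearts above their shams, an order that 34 genes (0.165%) showed. The interaction was 2.61 (standard error 0.41, limma-trend unadjusted p = 2.75e-05, adjusted p = 0.189; DESeq2 adjusted p = 1.02e-04). *Gm25848* had only 1.07 to 4.57 normalized counts in infarcted PKM2fl/fl hearts and 12.97 to 45.7 in infarcted PKM2-/- hearts, with an interaction of 4.23 (standard error 0.77, limma-trend adjusted p = 0.304). Over the 51 snoRNAs tested the median interaction was 0.11 and 26 were above 0, close to the 49.2% of all genes.

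**Figure D3:**
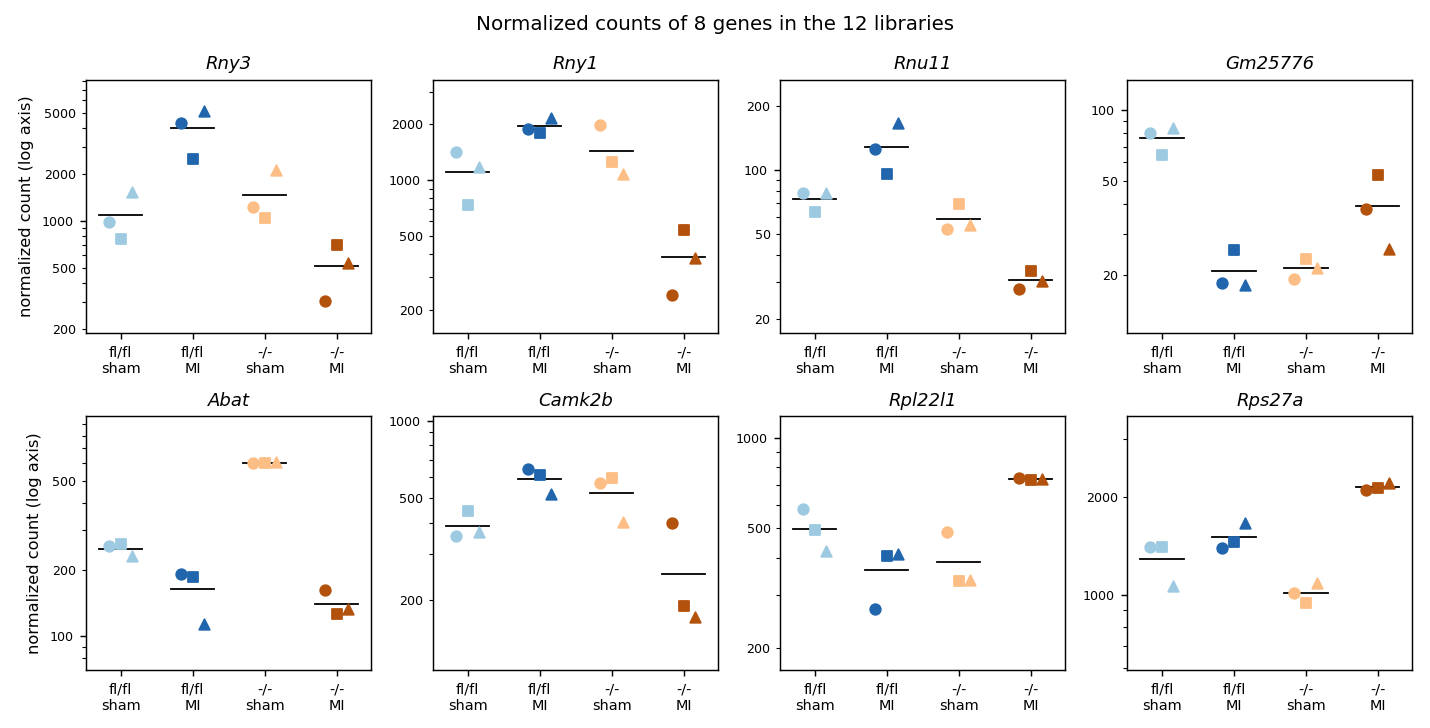
Normalized counts (log axis) of 8 genes in the 12 libraries, with replicates 1, 2 and 3 as circle, square and triangle and the group mean as a line. *Rny3*, *Rny1* and *Rnu11* are lowest in PKM2-/- MI hearts, *Gm25776* and *Abat* differ between the sham groups, and *Rpl22l1* and *Rps27a* are highest in PKM2-/- MI hearts, with *Rps27a* at 2102 to 2196.

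Residual rRNA, nuclear and mitochondrial, varied between libraries. Reads on 16 rRNA-related loci, drawn from a list of 23, made up 22.4% ± 6.15 (SD, n = 3) of reads in PKM2fl/fl sham, 39.8% ± 16.9 in PKM2fl/fl MI, 36.2% ± 10.7 in PKM2-/- sham and 29.4% ± 11.3 in PKM2-/- MI libraries. Nuclear loci alone held 0.233% to 2.005% in PKM2fl/fl sham and 2.37% to 32.85% in PKM2fl/fl MI libraries. They held 5.97% to 19.1% in PKM2-/- sham and 3.30% to 23.6% in PKM2-/- MI libraries. The rest of the share was mitochondrial rRNA. The interaction of the full share was −24.2 percentage points (exact permutation test of genotype labels within sham and within MI, two-sided, p = 0.1), and −15.5 points for nuclear rRNA alone (exact permutation test, p = 0.215). PKM2fl/fl MI 2, at 20.3%, stood apart from PKM2fl/fl MI 1 and 3 at 49.9% and 49.1%, and without it the value of the full share was −33.9 points (exact permutation test, p = 0.01). Leaving out any other library gave p from 0.09 to 0.26 in the same test. All 15 of these loci that were tested had an interaction below 0, where 50.8% of all genes did, with a median of −3.92. An unadjusted p under 0.05 was reached by 10, where 3.39% of all genes did on this side. The loci all count residual rRNA and are not independent of each other. With the percent of rRNA-related reads as a covariate, limma-trend called 0 genes, and the interaction was −2.375 for *Rny3*, −2.54 for *Rny1*, −1.40 for *Rnu11*, 2.43 for *Gm25776* and 4.81 for *Gm25848*. With the level of *CT010467.1*, an rRNA-related locus, as the covariate the values were −2.18 for *Rny3*, −2.29 for *Rny1*, −1.33 for *Rnu11*, 2.49 for *Gm25776* and 5.01 for *Gm25848*. All 5 kept their sign, and the interactions of the Y RNAs and *Rnu11* were smaller in size under either covariate.

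Genes of protein synthesis had higher responses in PKM2-/- hearts. Ribosomal proteins form the large and small subunits of the cytosolic ribosome, and this list and those of ribosomal pseudogenes, ribosome assembly and translation factors were drawn up after values had been seen. All 79 ribosomal proteins tested had an interaction above 0, from 0.06 to 0.91, with a median of 0.43 against −0.01 over all genes. Of the 79, 35 reached an unadjusted p under 0.05 with a higher response, where 3.74% of all genes did, and 7 had a DESeq2 adjusted p under 0.05 without the fold threshold, where 0.121% of all genes did on this side and 0.0777% on the lower side. None was called by limma-trend. Their median response was 0.15 in PKM2fl/fl and 0.56 in PKM2-/- hearts.

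The libraries were close to each other within the MI groups. The 79 genes summed to 242609, 261692 and 205758 normalized counts in PKM2fl/fl sham and to 261227, 253492 and 260237 in PKM2fl/fl MI libraries. In PKM2-/- hearts they summed to 210733, 171977 and 248640 after sham surgery and to 307106, 308534 and 319080 after MI. The 3 infarcted PKM2-/- hearts were the highest of all 12. In 62 of the 79 genes all 3 PKM2-/- MI libraries were above all 3 PKM2fl/fl MI libraries, where 10.8% of all genes had this order. The median difference between the MI groups was 0.26 and that between the sham groups was −0.16, so both ends of the comparison contributed. PKM2-/- sham 2 was the lowest of the shams. Without it the median interaction was 0.28 and 76 of the 79 were above 0. Under scaling to total reads the median was 1.12, above the shift of 0.68 of all genes.

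*Rps27a*, which encodes a fusion of ubiquitin and a protein of the small subunit, had 1405, 1409 and 1065 normalized counts in PKM2fl/fl sham, 1397, 1456 and 1662 in PKM2fl/fl MI, 1016, 949 and 1091 in PKM2-/- sham and 2102, 2123 and 2196 in PKM2-/- MI libraries. It rose by 1.07 in PKM2-/- hearts (limma-trend adjusted p = 1.04e-05) and had a response of 0.23 in PKM2fl/fl hearts (adjusted p = 0.132). The interaction was 0.85 (standard error 0.17, limma-trend adjusted p = 0.304; DESeq2 adjusted p = 0.00741). *Rpl11* and *Rpl9*, of the large subunit, had interactions of 0.75 (standard error 0.15) and 0.85 (standard error 0.17), with DESeq2 adjusted p of 0.00458 and 0.00844 and limma-trend adjusted p of 0.304 and 0.309. In *Rpl9* the PKM2fl/fl MI libraries, at 2207, 2519 and 2270, were all below the PKM2-/- MI libraries, at 3537, 3320 and 3584.

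*Rpl22l1*, a paralog of the large subunit protein *Rpl22*, parted between the infarcted groups. It had 580, 494 and 419 normalized counts in PKM2fl/fl sham and 270, 406 and 412 in PKM2fl/fl MI libraries, against 487, 334 and 338 in PKM2-/- sham and 738, 727 and 733 in PKM2-/- MI libraries. The interaction was 1.41 (standard error 0.27, limma-trend adjusted p = 0.304), and 1.38 with DESeq2 (adjusted p = 0.00271). *Gm33051*, which starts on the same chromosome 3 just past the end of *Rpl22l1* (28810187 against 28807424 in GRCm38), showed nearly the same pattern with 1.44 (standard error 0.28, limma-trend adjusted p = 0.304).

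Loci annotated as ribosomal protein pseudogenes and paralogs shared the sign, but they can take reads from their parent genes, so they are no separate evidence. Of 68 pseudogenes tested, 59 had an interaction above 0, with a median of 0.44, and of 10 paralogs 7 did, with a median of 0.43. *Rpl9-ps7* had 68.2, 76.0 and 50.5 normalized counts in PKM2fl/fl sham, 38.6, 34.3 and 36.6 in PKM2fl/fl MI, 22.5, 24.8 and 15.1 in PKM2-/- sham and 48.6, 47.0 and 79.3 in PKM2-/- MI libraries. The MI hearts of the 2 genotypes lay on opposite sides of their shams. Its interaction was 2.23 (standard error 0.40), that of *Rps10-ps1* was 1.65 (standard error 0.29), that of *Gm10288* 1.76 (standard error 0.34) and that of *Rps18-ps5* 1.77 (standard error 0.35), each with a limma-trend adjusted p of 0.304 and each called by DESeq2.

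Factors that build or use ribosomes moved less. Among 30 ribosome assembly genes the median interaction was 0.25 and 25 were above 0, with an unadjusted p under 0.05 in 6 higher and 1 lower. Among 31 translation initiation and elongation factors the median was 0.18, 27 were above 0 and 4 reached an unadjusted p under 0.05. RNA-binding proteins also stood among the genes with the smallest p. *Hnrnpa0* had 1073, 1115 and 1128 normalized counts in PKM2fl/fl sham and 1130, 1256 and 1222 in PKM2fl/fl MI libraries, and 1085, 1025 and 886 in PKM2-/- sham and 2105, 1680 and 1766 in PKM2-/- MI libraries. Its response was 0.89 in PKM2-/- hearts (limma-trend adjusted p = 2.20e-05), under 2-fold, and 0.12 in PKM2fl/fl hearts (adjusted p = 0.382), and the interaction was 0.77 (standard error 0.15, limma-trend adjusted p = 0.304). *Snrpb*, a core protein of the spliceosome, had an interaction of 0.62 (standard error 0.13), the 3 PKM2fl/fl MI libraries being below and the PKM2-/- MI libraries above their shams.

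*Hnrnpa1* and *Hnrnpa2b1*, of the hnRNPs that direct *Pkm* splicing toward PKM2, had smaller values. *Hnrnpa1* had an interaction of 0.45 (standard error 0.17, limma-trend unadjusted p = 0.0226) and *Hnrnpa2b1* of 0.51 (standard error 0.15, limma-trend unadjusted p = 0.00478), with an adjusted p of 0.676 and 0.591. The response of *Hnrnpa2b1* was −0.43 in PKM2fl/fl and 0.08 in PKM2-/- hearts. Of the 8 *Pkm* splicing regulators tested, 5 had an interaction above 0 and 3 below 0. The values ran from −0.60 to 0.51, and the median was 0.19.

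Interferon-stimulated genes leaned the other way. These genes are switched on by type I interferon through a promoter element bound by STAT and IRF proteins, and encode antiviral sensors and effectors. All 27 of the 28 listed that were tested had an interaction below 0, from −1.69 to −0.10, where 50.8% of all genes were below 0, and the median was −0.83. Only 3, *Ifi44*, *Oas2* and *Oas1a*, reached an unadjusted p under 0.05, where 3.39% of all genes did on this side. In PKM2fl/fl hearts 7 of the 27 rose past the threshold (12.8% of all genes), and in PKM2-/- hearts 2 rose (14.9% of all genes) and 1 fell (13.9%). The median response was 0.55 in PKM2fl/fl and −0.28 in PKM2-/- hearts.

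The spread of this list within groups was wide. Against the shams of their own genotype its median was 0.89, 0.92 and −0.14 in the PKM2fl/fl MI libraries and −0.72, −0.12 and −0.01 in the PKM2-/- MI libraries. PKM2fl/fl MI 3 was therefore at the level of the PKM2-/- hearts. Among the shams, PKM2fl/fl sham 3 and PKM2-/- sham 1 stood high, at 0.58 and 0.80 against the mean of all shams. The median interaction was −0.47 without PKM2-/- sham 1, with 3 genes above 0, and −1.20 without PKM2fl/fl MI 3. Under scaling to total reads, where the median over all genes was 0.68, that of the list was −0.14 with 9 genes above 0. In 3 of the 27 genes all PKM2-/- MI libraries were below all PKM2fl/fl MI libraries, where 8.19% of all genes were.

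*Ifi44* had 210, 117 and 389 normalized counts in PKM2fl/fl sham, 354, 503 and 251 in PKM2fl/fl MI, 452, 253 and 222 in PKM2-/- sham and 103, 150 and 224 in PKM2-/- MI libraries. The sham groups overlapped, and the MI groups did not. The interaction was −1.69 (standard error 0.59, limma-trend adjusted p = 0.663). *Oas1a*, an oligoadenylate synthetase that senses double-stranded RNA, rose by 1.49 in PKM2fl/fl hearts (limma-trend adjusted p = 0.00269) with 0.45 in PKM2-/- hearts (adjusted p = 0.279), and the interaction was −1.04 (standard error 0.48, limma-trend adjusted p = 0.696). *Oas3* rose in both genotypes, by 2.08 and 1.07 (limma-trend adjusted p = 0.00105 and 0.0398), and *Isg15*, a ubiquitin-like modifier, rose by 1.42 in PKM2fl/fl hearts (adjusted p = 0.00534) and had 0.69 in PKM2-/- hearts (adjusted p = 0.118).

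Promoters of the list were searched for the element. The core of the interferon-stimulated response element, read on either strand as GAAA repeated after a gap of 2 bases, was found in 12 of the 19 list members with a RefSeq promoter (63.2%), where the window runs from 250 bases before to 50 after the start. It was found in 400 of 12862 promoters of genes tested (3.11%), in 943 of 27025 RefSeq promoters (3.49%) and in 7 of 58 ribosomal protein promoters (12.1%). A match is a description of letters. The promoter stretches of 4 members are given with the element in capitals, from GRCm38.p6, each written 5′ to 3′ on the strand of its gene. *Oas1a* is at chr5:120907506-120907585 (reverse), *Ifit1* at chr19:34640750-34640829 (forward), *Bst2* at chr8:71537558-71537637 (reverse) and *Oas3* at chr5:120777690-120777769 (reverse).

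Oas1a: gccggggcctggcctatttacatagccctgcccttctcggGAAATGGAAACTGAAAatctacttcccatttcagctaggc
Ifit1: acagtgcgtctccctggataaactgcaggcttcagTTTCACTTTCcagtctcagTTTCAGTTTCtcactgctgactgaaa
Bst2: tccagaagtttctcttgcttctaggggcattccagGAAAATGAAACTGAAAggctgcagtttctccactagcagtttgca
Oas3: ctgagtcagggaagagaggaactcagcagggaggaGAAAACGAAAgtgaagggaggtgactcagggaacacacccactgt

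*Ifit1*, whose stretch holds the element more than once in the reverse orientation, had an interaction of −1.11 (standard error 0.52, limma-trend unadjusted p = 0.0515), and *Bst2*, which encodes the virus tether tetherin, had −0.81 (standard error 0.43, limma-trend unadjusted p = 0.0861).

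**Figure D4:**
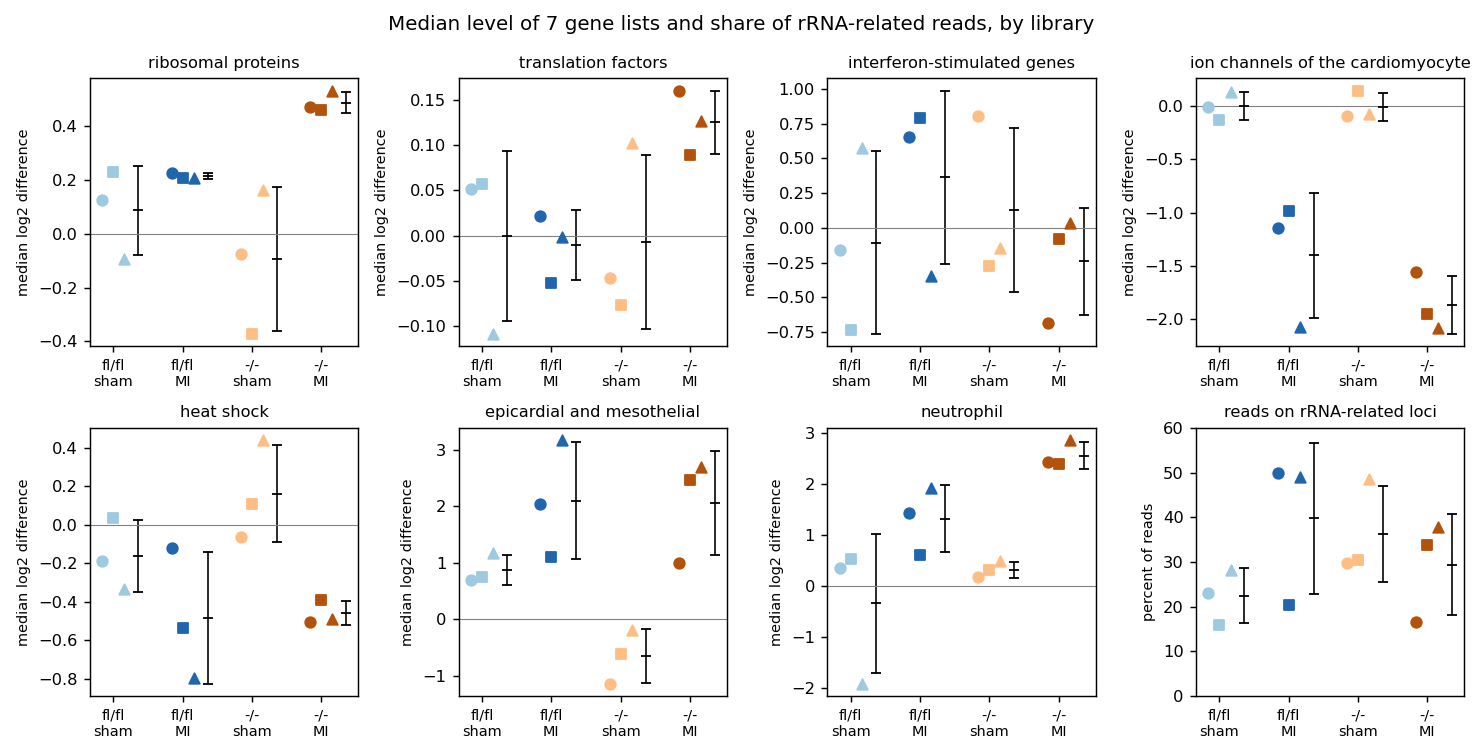
Median log2 difference of 7 gene lists from the mean of the 6 shams, and percent of reads on rRNA-related loci (lower right), 1 point per library with replicates 1, 2 and 3 as circle, square and triangle, and group mean ± SD as bars. Ribosomal proteins are highest in the 3 PKM2-/- MI hearts (0.46 to 0.53), interferon-stimulated genes overlap between groups, ion channels in PKM2fl/fl MI 3 (−2.07) lie with the PKM2-/- MI hearts, and epicardial and mesothelial genes are lowest in PKM2-/- shams.

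Genes of cardiomyocyte excitability fell in both genotypes, with a lower median in PKM2-/- hearts. Of 15 ion channel and gap junction genes, 10 fell past the threshold in PKM2fl/fl hearts (10.8% of all genes) and 12 in PKM2-/- hearts (13.9%). The response was of larger size in PKM2-/- hearts in 14, against 12747 of all 20604 genes. Of the 2637 falling genes, 78.4% had the larger fall there. An interaction above 0 was seen in 1, against 49.2% of all genes. In 2 of the 15 all PKM2-/- MI libraries were below all PKM2fl/fl MI libraries, where 8.19% of all genes were. The median response was −1.38 in PKM2fl/fl and −1.86 in PKM2-/- hearts, and the median interaction was −0.44. *Kcnj3*, a subunit of the acetylcholine-activated potassium channel, had 2720, 2971 and 3558 normalized counts in PKM2fl/fl sham, 816, 1363 and 534 in PKM2fl/fl MI, 2112, 2711 and 2511 in PKM2-/- sham and 434, 265 and 226 in PKM2-/- MI libraries. Its interaction was −1.17 (standard error 0.41, limma-trend unadjusted p = 0.0144, adjusted p = 0.667). *Kcnv2*, a modifier subunit of voltage-gated potassium channels, had responses of −3.01 in PKM2fl/fl and −4.02 in PKM2-/- hearts.

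This list followed the library that stood apart. Its median against own shams was −1.12, −0.79 and −2.05 in the PKM2fl/fl MI libraries and −1.59, −2.06 and −2.12 in the PKM2-/- MI libraries. PKM2fl/fl MI 3 was within the range of PKM2-/- hearts, and without it the median interaction was −0.78. Under scaling to total reads it was 0.25 with 11 of 15 above 0, so the sign of the list flips there, while relative to the median of all genes under that scaling it remained lower.

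Calcium handling genes gave a median response of −1.37 in PKM2fl/fl and −1.65 in PKM2-/- hearts and a median interaction of −0.37, which became −0.66 without PKM2fl/fl MI 3, −0.20 without PKM2fl/fl MI 2 and 0.32 under scaling to total reads. Of the 17 tested, 5 were above 0, and 2 with a lower response reached an unadjusted p under 0.05. *Camk2b*, the beta subunit of calcium/calmodulin-dependent kinase II, had 353, 443 and 368 normalized counts in PKM2fl/fl sham, 649, 613 and 517 in PKM2fl/fl MI, 569, 597 and 401 in PKM2-/- sham and 399, 189 and 170 in PKM2-/- MI libraries. All infarcted PKM2fl/fl hearts were above, and all infarcted PKM2-/- hearts below, their shams. The response of −1.13 in PKM2-/- hearts passed the threshold (limma-trend adjusted p = 0.00274) and the 0.61 in PKM2fl/fl hearts did not (adjusted p = 0.0742). The interaction was −1.74 (standard error 0.38, limma-trend adjusted p = 0.419; DESeq2 adjusted p = 0.0215), and limma-trend called it without PKM2fl/fl MI 3 or without PKM2-/- MI 1.

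*Cacnb2*, the beta subunit of the L-type calcium channel, had responses of −0.94 in PKM2fl/fl and −1.65 in PKM2-/- hearts, and the interaction was −0.71 (standard error 0.24, limma-trend adjusted p = 0.660). *Atp2a2*, the sarcoplasmic reticulum calcium pump, fell in both, with responses of −1.80 in PKM2fl/fl and −2.54 in PKM2-/- hearts and an interaction of −0.74 (standard error 0.49, limma-trend adjusted p = 0.771). Its infarcted PKM2fl/fl hearts were at 81144, 88610 and 33144 normalized counts, so that replicate 3 was below the PKM2-/- hearts at 39502, 35488 and 37364. Sarcomere genes had a median interaction of −0.17, and 0 of 22 reached an unadjusted p under 0.05. The median was −0.53 without PKM2fl/fl MI 3, −0.36 without PKM2-/- MI 1, 0.02 without PKM2fl/fl MI 2 and −0.03 without PKM2fl/fl MI 1.

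Genes of metabolism were among the single genes with a lower response in PKM2-/- hearts. *Abat*, the mitochondrial transaminase that breaks down the neurotransmitter GABA, had 254, 260 and 229 normalized counts in PKM2fl/fl sham and 192, 184 and 113 in PKM2fl/fl MI libraries, against 600, 601 and 610 in PKM2-/- sham and 161, 126 and 133 in PKM2-/- MI libraries. The sham groups were far apart, and the MI groups overlapped. The difference between shams was 1.28 (limma-trend adjusted p = 0.124) and between MI groups −0.19 (adjusted p = 0.668). It fell by 2.11 in PKM2-/- hearts (limma-trend adjusted p = 2.01e-06), and the interaction was −1.47 (standard error 0.26, limma-trend adjusted p = 0.304; DESeq2 adjusted p = 1.32e-04). *Abat* was the 1 gene that limma called when libraries were weighted by quality.

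*Mlxipl*, which encodes the glucose-responsive transcription factor ChREBP, parted after MI instead. It had 562, 573 and 617 normalized counts in PKM2fl/fl sham and 402, 417 and 582 in PKM2-/- sham libraries, and 374, 297 and 194 in PKM2fl/fl MI and 88.4, 88.3 and 101 in PKM2-/- MI libraries. It fell in both genotypes, with responses of −1.07 in PKM2fl/fl and −2.305 in PKM2-/- hearts. The interaction was −1.24 (standard error 0.30, limma-trend adjusted p = 0.519; DESeq2 adjusted p = 0.0276). *Mlxipl* was also 1 of 7 genes (0.034%) that were lower in PKM2-/- than in PKM2fl/fl hearts after MI (difference −1.58, limma-trend adjusted p = 0.0190), with *Rny1*, *Rny3*, *Rnu11*, *Gm28872* and 2 genes named after their values were seen, *Gm29007* and *Gm36388*. No gene (0.0%) was called higher after MI, with 3143 genes at an unadjusted limma-trend p under 0.05 in either direction, and none was called between the shams in either direction, with 1895.

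Further genes with small p and a lower response were spread over functions. *Acmsd*, an enzyme of tryptophan breakdown that limits NAD synthesis, had 53.0, 52.2 and 77.7 normalized counts in PKM2-/- sham and 6.49, 13.3 and 12.98 in PKM2-/- MI libraries, with PKM2fl/fl libraries at 16.4 to 40.5 in either state. The interaction was −2.46 (standard error 0.58, limma-trend adjusted p = 0.519). *Fhdc1*, a formin that acts on actin and microtubules, rose in both genotypes, by 2.97 in PKM2fl/fl and 1.23 in PKM2-/- hearts, and had an interaction of −1.75 (standard error 0.40), the PKM2-/- shams at 26.1 to 38.6 being above the PKM2fl/fl shams at 8.22 to 14.4. *Trpm3*, a cation channel, was at 1348, 735 and 1676 in PKM2fl/fl MI and at 546, 653 and 584 in PKM2-/- MI libraries, with an interaction of −1.42 (standard error 0.34, DESeq2 adjusted p = 0.0215).

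*Rims2*, a scaffold of vesicle release, had an interaction of −2.47 (standard error 0.59) at no more than 47.5 normalized counts in any library. *Tmem178b* had −1.55 (standard error 0.37) and *Gm15910* −1.30 (standard error 0.27), and both were called by DESeq2. *Zbtb46*, a transcription factor of dendritic cells and endothelium, had −0.77 (standard error 0.18), *Heyl*, a Notch target, −0.85 (standard error 0.20), and *1700012D14Rik* −0.87 (standard error 0.20), all with a limma-trend adjusted p of 0.516 or 0.519. On the other side, *Rab24*, a small GTPase of autophagy, had a response of −0.83 in PKM2fl/fl and 0.04 in PKM2-/- hearts, an interaction of 0.88 (standard error 0.18, limma-trend adjusted p = 0.304). *Gm26377* had 959, 1011 and 705 normalized counts in PKM2fl/fl sham, 1186, 1528 and 1314 in PKM2fl/fl MI, 850, 580 and 576 in PKM2-/- sham and 2320, 2390 and 2478 in PKM2-/- MI libraries, an interaction of 1.26 (standard error 0.24, DESeq2 adjusted p = 0.00271).

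Heat shock genes, the chaperones of the stress response, had a median interaction of −0.26, and 1 of 14 was above 0. At the median the shams were higher by 0.34 in PKM2-/- hearts, while the MI groups differed by 0.00313. The sham levels of the list overlapped, from −0.33 to 0.03 in PKM2fl/fl and from −0.06 to 0.44 in PKM2-/- libraries. In 2 of the 14 genes all PKM2-/- shams were above all PKM2fl/fl shams, where 8.28% of all genes were. *Hsph1*, a co-chaperone of HSP70, had 845, 1251 and 698 normalized counts in PKM2fl/fl sham, 1158, 886 and 708 in PKM2fl/fl MI, 1568, 1532 and 2098 in PKM2-/- sham and 557, 734 and 883 in PKM2-/- MI libraries. It fell by 1.27 in PKM2-/- hearts (limma-trend adjusted p = 5.53e-04), and the interaction was −1.26 (standard error 0.33, limma-trend adjusted p = 0.575). The inducible HSP70 genes *Hspa1a* and *Hspa1b*, near copies between which reads can be split, had −1.30 (standard error 0.64) and −1.52 (standard error 0.65). Without PKM2fl/fl MI 1 the median was −0.03 with 7 genes above 0, without PKM2-/- sham 3 it was −0.07 with 6 above 0, and under scaling to total reads it was 0.43.

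Some lists of inflammatory genes had a median interaction above 0, while complement (−0.09), antigen presentation by MHC class II (−0.01) and T, B and NK cell genes (−0.12) did not, and these medians were above 0 under scaling to total reads. Of 11 neutrophil markers tested from a list of 18, 10 had an interaction above 0, with a median of 0.52, but 0 reached an unadjusted p under 0.05. In 9 of the 11 all infarcted PKM2-/- hearts were above all infarcted PKM2fl/fl hearts (10.8% of all genes). The list summed to 4273, 2294 and 4419 normalized counts in PKM2fl/fl MI and to 9345, 7502 and 9132 in PKM2-/- MI libraries. Its median difference between genotypes was 1.29 after MI and 0.60 after sham surgery. Part of the gap after MI was thus present in the shams, and the interaction takes that part off. *Il1r2*, the decoy receptor of interleukin-1, had 320, 176 and 588 in PKM2fl/fl MI and 2385, 1808 and 1985 in PKM2-/- MI libraries, and an interaction of 1.34 (standard error 0.69, limma-trend adjusted p = 0.719). *S100a8* and *S100a9*, the subunits of calprotectin, had 1.07 (standard error 0.89) and 0.92 (standard error 0.87).

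The interaction of these markers depended on which library was left out. PKM2fl/fl sham 3 summed to 718 normalized counts against 2282 and 2666 in the other 2 PKM2fl/fl shams and 1979 to 2702 in PKM2-/- shams. Without it the median interaction was 1.35, without PKM2fl/fl sham 2 it was 0.06, without PKM2fl/fl sham 1 it was 0.15 and without PKM2fl/fl MI 2 it was 0.27. The 25 genes of recruited monocytes and macrophages all rose past the threshold in PKM2fl/fl (12.8% of all genes) and in PKM2-/- hearts (14.9%). Their medians were 3.07 and 3.36, with a median interaction of 0.17 and 16 above 0. Metallothionein and acute phase genes, 11 of 13 tested, had a median interaction of 0.47 and 9 above 0. Their median difference between genotypes was 0.98 after MI and already 0.57 after sham surgery. In 8 of the 11 all infarcted PKM2-/- hearts were above all infarcted PKM2fl/fl hearts (10.8% of all genes). *Mt2*, a metal-binding stress protein, had 1620, 729 and 1334 in PKM2fl/fl MI and 3738, 2484 and 2962 in PKM2-/- MI libraries, an interaction of 1.24 (standard error 0.56, limma-trend adjusted p = 0.696), and *Mt1* had 0.88 (standard error 0.39). The median of this list was −0.03 with *CT010467.1*, an rRNA-related locus, as a covariate.

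S100 proteins, calcium-binding regulators of which several mark activated fibroblasts and myeloid cells, had a median interaction of 0.57 with 8 of 9 above 0 and 3 at an unadjusted p under 0.05. *S100a4* rose in both genotypes, by 2.05 and 3.41, from 74.0 to 149 in PKM2fl/fl sham to 492, 305 and 587 in PKM2fl/fl MI, and from 52.2 to 143 in PKM2-/- sham to 1044, 754 and 785 in PKM2-/- MI libraries. The infarcted groups did not overlap, and the interaction was 1.35 (standard error 0.50, limma-trend unadjusted p = 0.0184, adjusted p = 0.676). *S100a6* and *S100a13* had 0.54 (standard error 0.23) and 0.57 (standard error 0.21).

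Cell cycle genes rose in both genotypes with medians of 2.95 and 3.30. Of 29 tested, 28 rose past the threshold in PKM2fl/fl (12.8% of all genes) and 29 in PKM2-/- hearts (14.9%). The interaction was above 0 in 26, and its median was 0.29. *Cenpf*, a kinetochore protein of dividing cells, was the 1 member at an unadjusted p under 0.05. It had 493, 277 and 278 normalized counts in PKM2fl/fl sham and 125, 84.9 and 147 in PKM2-/- sham libraries, and after MI 785, 900 and 980 in PKM2fl/fl and 752, 1035 and 1099 in PKM2-/-. The sham groups did not overlap and the MI groups did. The interaction was 1.63 (standard error 0.35, limma-trend adjusted p = 0.396; DESeq2 adjusted p = 0.00602).

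Epicardial and mesothelial genes had the largest positive median of any list, 1.74, with 10 of 12 above 0 and 5 at an unadjusted p under 0.05. These genes mark the outer lining of the heart, of which a ventricular sample holds a variable amount. In PKM2fl/fl hearts 3 rose past the threshold (12.8% of all genes) and in PKM2-/- hearts 11 did (14.9%), with median responses of 1.11 and 2.91. At the median the difference lay in the shams. The median difference was −1.67 between the sham groups and 0.05 between the MI groups, and in 7 of the 12 genes all PKM2-/- shams were below all PKM2fl/fl shams (8.23% of all genes). *Krt19*, a keratin of simple epithelia and mesothelium, had 18.2, 14.4 and 24.5 normalized counts in PKM2fl/fl sham and 3.21, 5.22 and 8.63 in PKM2-/- sham libraries, and 24.7, 21.4 and 119 in PKM2fl/fl MI and 38.9, 69.2 and 98.1 in PKM2-/- MI libraries.

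The interaction of *Krt19* was 2.30 (standard error 0.83, limma-trend adjusted p = 0.671), that of *Lrrn4* 2.33 (standard error 0.78), that of *Krt8* 2.72 (standard error 1.03), that of *Upk1b* 2.75 (standard error 1.20) and that of mesothelin, *Msln*, 3.10 (standard error 1.43). Their counts in PKM2-/- shams were low, *Krt8*, *Upk1b* and *Msln* being at 0 in PKM2-/- sham 1, so these fitted differences depend on the value of 1 added before taking logs. *Wt1* and *Tbx18*, transcription factors of the developing epicardium, had −0.66 (standard error 0.51) and −0.27 (standard error 0.26), both turning above 0 under scaling to total reads. The list also varied within a group, and PKM2fl/fl MI 3 had a median of 3.17 against the shams where PKM2fl/fl MI 2 had 1.09. Without PKM2fl/fl MI 2 the median interaction was 1.11.

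Several large programmes had a median interaction within 0.2 of 0 when all libraries were used. Collagens rose with medians of 2.22 in PKM2fl/fl and 1.99 in PKM2-/- hearts, with 16 and 15 of 19 past the threshold (12.8% and 14.9% of all genes). Their median interaction was −0.07, with 0 at an unadjusted p under 0.05. Nuclear-encoded subunits of respiratory complex I all fell past the threshold in PKM2fl/fl hearts, 36 of 36 (10.8% of all genes). Their medians were −1.50 and −1.43, with a median interaction of 0.09. Fatty acid oxidation genes had medians of −1.72 and −1.96 and an interaction of −0.14, and genes of the tricarboxylic acid (TCA) cycle had −1.40 and −1.57 and an interaction of −0.16, with 0 of 27 and 0 of 20 at an unadjusted p under 0.05. Glycolysis genes had a median interaction of −0.08 with 9 of 23 above 0. These medians moved with the library that had the strongest fall. Without PKM2fl/fl MI 3 the median interaction was −0.50 for fatty acid oxidation and −0.43 for TCA cycle genes, with 0 of 27 and 0 of 20 above 0, and −0.17 for complex I, whose sign turned. Without PKM2fl/fl MI 2 the values were −0.0083 for fatty acid oxidation, 0.04 for TCA cycle and 0.27 for complex I genes. With a library left out, collagens ran from −0.24 without PKM2fl/fl sham 2 to 0.03 without PKM2-/- MI 1, and glycolysis from −0.16 without PKM2-/- MI 1 to 0.04 without PKM2fl/fl MI 1. Under scaling to total reads the medians below 0 turned positive, to 0.52 for sarcomere, 0.55 for fatty acid oxidation, 0.53 for TCA cycle, 0.62 for collagens and 0.61 for glycolysis genes, all under the 0.68 of all genes.

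Genes of glucose handling are given as values, since no gene of any kind passed the interaction threshold in limma-trend. *Pkm*, with both isoforms counted, had 7779, 9444 and 8764 normalized counts in PKM2fl/fl sham, 12076, 9576 and 10560 in PKM2fl/fl MI, 11710, 14242 and 13199 in PKM2-/- sham and 16113, 11549 and 10120 in PKM2-/- MI libraries. Its interaction was −0.38 (standard error 0.24, limma-trend unadjusted p = 0.133, adjusted p = 0.764). *Slc2a4*, the insulin-responsive glucose transporter GLUT4, fell in both genotypes, with responses of −1.86 in PKM2fl/fl and −2.39 in PKM2-/- hearts, and its interaction was −0.53 (standard error 0.43, limma-trend adjusted p = 0.812). PKM2fl/fl MI 3 was again the lowest heart for *Slc2a4*, at 681 against 1971 and 1778 in the other 2 and 1216, 773 and 822 in PKM2-/- hearts. Without that library limma-trend called the interaction of *Slc2a4*. Both genes had an interaction above 0 when libraries were scaled to total reads.

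**Figure D5:**
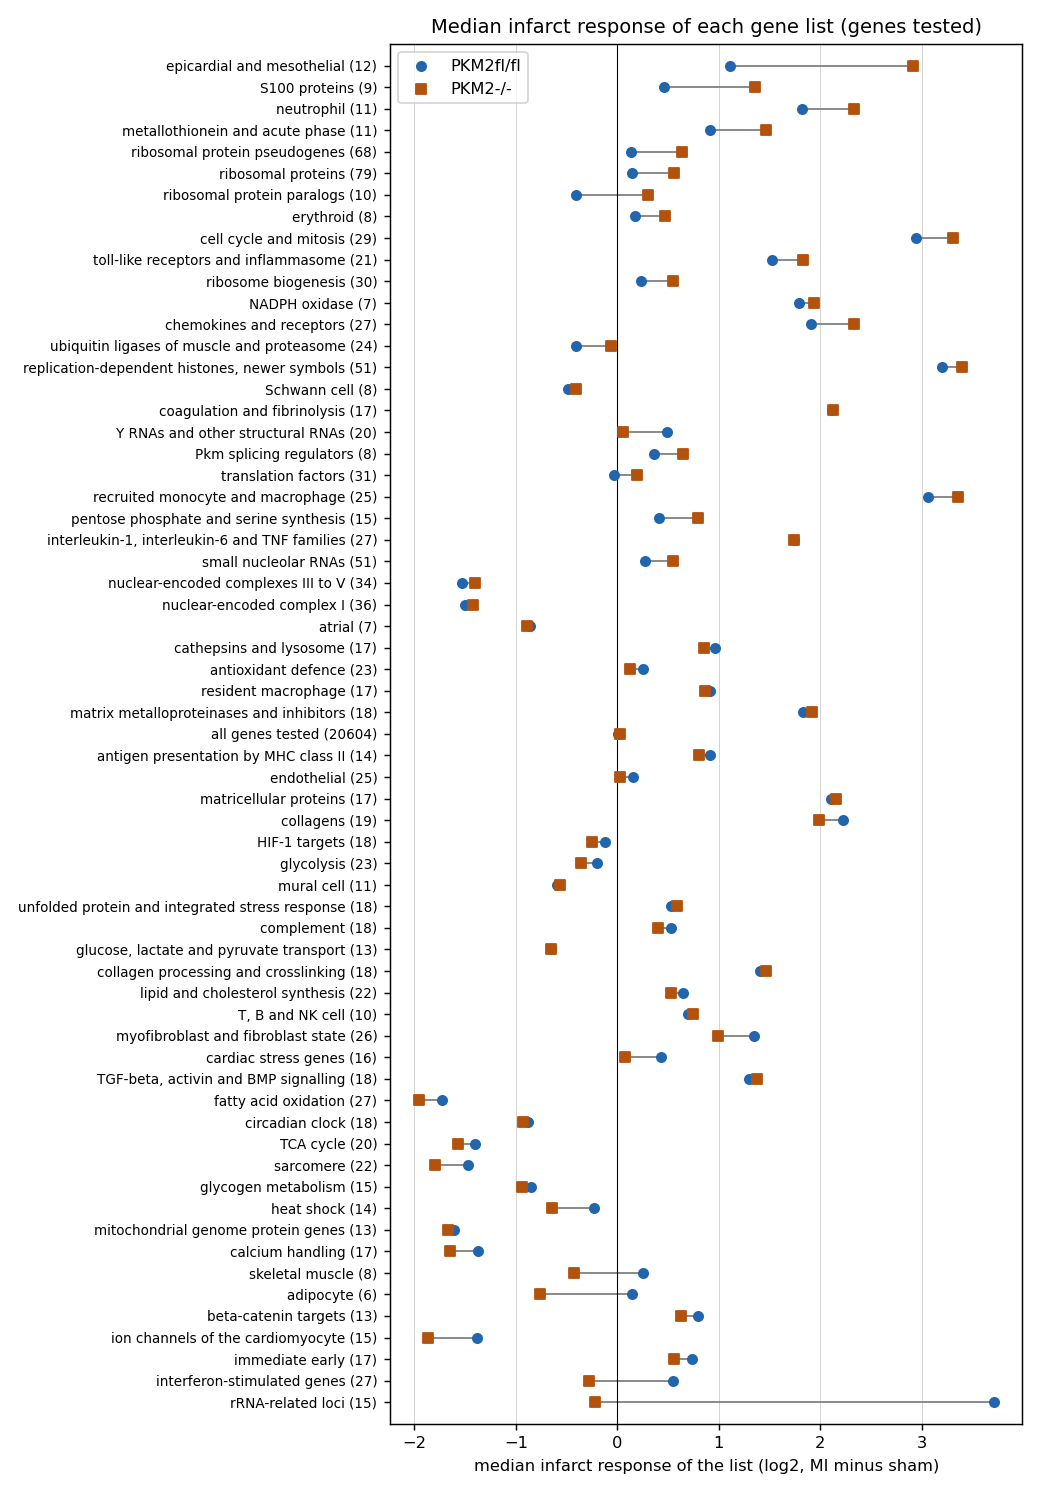
Median infarct response (log2, MI minus sham) of each gene list in PKM2fl/fl (circles) and PKM2-/- hearts (squares), ordered by the median interaction, with the number of genes tested in brackets and all genes tested as 1 row. Lists at the top, such as epicardial and mesothelial genes (1.11 and 2.91), have the higher response in PKM2-/-, and those at the bottom, such as interferon-stimulated genes (0.55 and −0.28), the lower.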

How the data were processed

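Left ventricles of sham and infarcted mice were profiled by total RNA sequencing after depletion of rRNA (NEBNext kits, paired-end reads, Illumina NextSeq). The authors trimmed reads with PRINSEQ after FastQC, used HISAT2 for alignment to mm10 and featureCounts for counting, and applied DESeq2; versions, strandedness and the treatment of multi-mapping reads are not given in the sources used here. The deposited signal values are reads divided by a size factor that the authors took from DESeq2, and whole reads were recovered for 100% of values (tolerance 0.01 reads). Columns of the authors' own baseline comparison (log2 fold change, its error, Wald statistic, p-value and adjusted p) were not used. Since the size factor scale hides how much of a library is residual rRNA, scaling by total reads was tried as an alternative.

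The 12 sham and MI libraries held 20623769 to 71855101 reads, with 3 libraries per group as the labels give them. Genes with a mean under 10 were dropped, 1 was added to each value, and limma-trend (limma 3.58.1, R 4.3.3) was fitted to the log2 values with a mean for each of the 4 groups. Calls needed a Benjamini-Hochberg adjusted p under 0.05 over 20604 genes and a log2 value of at least 1. A fold on this scale understates changes of genes with few reads. Because the deposited values were normalized, limma-trend was the main model, and DESeq2 1.42.0, edgeR 4.0.16 (quasi-likelihood) and limma-voom on the recovered reads were alternatives. An exact permutation test over 400 arrangements was applied to the percentage of a library's reads at rRNA-related loci. Scripts were tested on simulated data.

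Named genes were the 15 with the smallest p in each direction (no gene being called), the 3 members of each list with the smallest p of the interaction or the largest mean response, genes that the study measured, and members of short lists. The members and lists were chosen with earlier results of these data known. RefSeq tables on GRCm38.p6 matched 17273 of the 20604 genes (83.8%). Small RNA sequences came from GENCODE M39.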

Additional observations from a re-analysis of the deposited data

Results flagged for a closer look

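In 12 named genes every MI heart of one genotype lay on one side of the shams and every MI heart of the other genotype on the opposite side, which 0.0922% and 0.165% of all genes did in the 2 possible orders. The difference itself did not pass limma-trend after adjustment in any of the 12. PKM2fl/fl hearts were above and PKM2-/- hearts below their shams in *Rny3* (log2 interaction −3.38), *Rny1* (−2.78), *Camk2b* (−1.74), *Rnu11* (−1.70) and *Gm28872* (−1.69), of which the last reports largely the same reads as *Rnu11*. The order was the opposite in *Gm25776* (2.61), *Rpl9-ps7* (2.23), *Gm10288* (1.76), *Rps10-ps1* (1.65), *Gm33051* (1.44), *Rpl22l1* (1.41) and *Snrpb* (0.62). The share of residual rRNA, nuclear and mitochondrial, had an interaction of −24.2 points (p = 0.1 in a two-sided exact permutation test). With that share as a covariate all 12 kept their sign, with *Rny3* at −2.375 and *Rny1* at −2.54, and none was called by limma-trend.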

How the results depend on the processing

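The interaction count of 0 held under 14 of the 18 changes of processing other than leaving out a library, and became 128 under total count scaling, 28 with DESeq2, 125 with edgeR without a filter and 1 with array quality weights. The count ran from 0 to 137 when each library was left out in turn, with 137 without PKM2fl/fl MI 3. The cause was not tested. Infarct responses went from 4867 to 3134 genes in PKM2fl/fl hearts with *CT010467.1* as a covariate, and to 9980 in PKM2fl/fl and 11393 in PKM2-/- hearts with no fold threshold. Total count scaling gave ratios of 1.602 for rising and 0.748 for falling genes. It also turned the interactions of *Pkm* (0.31), *Slc2a4* (0.16), *Wt1* (0.030) and *Tbx18* (0.41) positive. The rRNA share interaction ran from −33.9 to −17.8 points with a library left out. No pairing by replicate number was seen. Of 18 same-numbered pairs, 1 had a correlation of deviations over 0.1 (range −0.075 to 0.123), and 1 of 12 libraries correlated best with its own number. With 3 libraries per group this check cannot exclude pairing, which the labels do not give. With the replicate block 0 interactions, 4828 PKM2fl/fl responses and 5897 PKM2-/- responses were called. Depth limits the smallest values, and lists with members near 0 reads, such as epicardial genes, rest on the value added before logs.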

Other observations

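Several other gene lists had values off the −0.01 median of all genes, with no gene called by limma-trend. Among 51 replication-dependent histones, newer symbols, which package new DNA and which were listed after values had been seen, 44 rose past the threshold in PKM2fl/fl (12.8% of all genes) and 47 in PKM2-/- hearts (14.9%), with medians of 3.20 and 3.39. Their median interaction was 0.23 with 37 above 0, but it was between −0.05 and 0.03 when PKM2fl/fl sham 2, PKM2fl/fl MI 1, PKM2fl/fl MI 2 or PKM2-/- sham 2 was left out, and 0.63 with 48 above 0 without PKM2fl/fl MI 3. Among 24 ubiquitin ligases of muscle and proteasome genes, the machinery of protein degradation, the median was 0.24 with 18 above 0, and it ran from 0.17 to 0.27 with a library left out. Cytokines and receptors of the interleukin-1, interleukin-6 and TNF families rose past the threshold in 18 of 27 cases in PKM2fl/fl (12.8% of all genes) and in 20 in PKM2-/- hearts (14.9%). Their median interaction was 0.14 with 22 above 0, against 0.0016 without PKM2fl/fl sham 2 and 0.00046 without PKM2fl/fl MI 2, with 14 above 0 in either case.

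Immediate early genes, the transcription factors switched on within minutes of a stimulus, had a median interaction of −0.44 with 6 of 17 above 0, and the median ran from −0.62 to −0.10 with a library left out. Beta-catenin targets had −0.40 with 3 of 13 above 0, and the range was −0.52 to −0.21. In both lists the sign turned under scaling to total reads, at 0.24 for immediate early genes and 0.28 for beta-catenin targets, each under the 0.68 of all genes. Fibroblast state genes had −0.13 with 8 of 26 above 0 and 4 lower at an unadjusted limma-trend p under 0.05, where 3.39% of all genes were.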
